A study of Homo sapiens with 6 samples.

Results

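The collagen genes were followed in HEY cells, a long-established line of human ovarian cancer, with and without overexpression of the microRNA miR-200a. They were taken as the protein-coding rows of the deposited gene table whose symbol is COL, a number, A and a number with nothing after it. This gave 44 genes of the 58735 in the table. PolyA RNA had been sequenced from 3 libraries of HEY cells overexpressing miR-200a and from 3 libraries of HEY cells carrying the empty vector, called miR-200a 1 to 3 and vector 1 to 3 here. All cells were cultured in RPMI-1640 with fetal bovine serum, and all 6 libraries carry batch number 1. The labels state incubations of 48, 49 and 50 h for miR-200a 1, 2 and 3 and of 51, 52 and 53 h for vector 1, 2 and 3, values that step by 1 h per sample and may not be true times. If they are, hours and group cannot be told apart. No source used here says how miR-200a was delivered or whether each line is a clone or a pool. The MIR200A hairpin gene held 5, 4 and 11 reads in the miR-200a libraries and 0, 0 and 0 in the vector libraries.

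Collagens are trimeric proteins whose chains wind into a triple helix of repeated glycine-containing units, and they form much of the extracellular matrix. Fibrillar collagens build the ropes of connective tissue, type IV collagen forms the sheet of basement membranes, type VI forms beaded filaments at the border of both, and other types link, anchor or span membranes. In ovarian tumours, fibrillar collagen is laid down largely by stromal fibroblasts, while epithelial cells make basement membrane chains. The miR-200 family is known for repressing ZEB transcription factors and for holding cells in an epithelial state, and miR-29 is the microRNA family best known for repressing collagen messages directly.

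A microRNA finds its targets mainly by pairing its seed, bases 2 to 8, with the 3′ UTR of a message. The mature sequences from RefSeq (GRCh38.p14) are shown 5′ to 3′ with the seed in capitals, because the seeds decide which collagen messages hold a match. For each gene, 1 annotated 3′ UTR was searched, the longest among its coding transcripts of the GENCODE 29 basic set on GRCh38. Other 3′ UTRs of a gene were not searched. The mature sequences are followed by every miR-200a-3p seed match (capitals, CAGTGTT, on the strand of the message) in these 3′ UTRs of the 44 collagens.
hsa-miR-200a-3p, chr1:1167916-1167937, plus strand: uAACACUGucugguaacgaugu
hsa-miR-29a-3p, chr7:130876748-130876769, minus strand: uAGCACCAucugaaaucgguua
COL4A6 site 1, chrX:108156570-108156598, minus strand: aaaccagaaccCAGTGTTtccacacttaa
COL4A6 site 2, chrX:108156027-108156055, minus strand: ctgaagctgcaCAGTGTTggtttccttgt
COL4A3, chr2:227312248-227312276, plus strand: ggaggctaaatCAGTGTTtgattgccccg
COL15A1, chr9:99070260-99070288, plus strand: tcttataaagtCAGTGTTtagaaatgtta

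Of the 44 collagens, 3 held the miR-200a-3p seed match, against 3490 of 19128 genes with an annotated 3′ UTR (18.2%). None of the 14 collagens that were expressed highly enough to be tested was among them. The miR-29 seed match TGGTGCT was present in 27 of the 44 collagens and in 14.2% of all genes. The median 3′ UTR was 1240 bases long in the collagens and 1083 in all genes. A match is a description of the letters in these UTRs and not evidence of binding.

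HEY cells listed a part of the collagens at levels that could be tested. Levels are given in FPKM, fragments per kilobase of gene length scaled by a total for each library. By that measure 14 of the 44 genes reached 1 FPKM in at least 3 of the 6 libraries, the filter for the test. Of all 58735 genes in the table, coding and noncoding, 12231 did so. Of the 30 below it, 6 held no read in any library, 10 held 1 to 9 reads summed over the 6 libraries and 14 held 10 or more. The genes with no read were COL3A1, COL5A3 and COL11A1 of the fibrillar class, COL9A1 and COL14A1, which decorate fibrils, and COL26A1. By class, the tested genes were 3 of 11 fibrillar collagens, 3 of 9 basement membrane and hexagonal network collagens, 3 of 5 beaded filament collagens, the anchoring fibril collagen COL7A1, 1 of 10 fibril-associated collagens, 2 of 4 membrane-spanning collagens and 1 of 2 multiplexins. The 44 genes together took 0.148% to 0.239% of all recovered reads in a library. With the deposited gene lengths, COL4A1 and COL4A2 made up 25.2% to 28.6% of the summed collagen FPKM. The type VI chains COL6A1, COL6A2 and COL6A3 made up 38.1% to 44.1%, and COL1A1, COL1A2 and COL3A1 0.461% to 0.619%. The deposited lengths were 19293 bases for COL4A2 and 5386 for COL6A2, against 6494 and 3461 in their principal coding transcripts. Summed over the libraries, COL4A2 held 60386 reads and COL6A2 32444. Shares with principal transcript lengths were not computed, so the order of type IV and type VI rests on the deposited lengths.

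Per library, 15849592 to 21003858 reads were recovered from the deposited values, and 1 read in a gene of 1 kb was worth 0.0475 to 0.0626 FPKM. Of the 8 ovarian and Müllerian carcinoma markers listed, PAX8, KRT7, KRT8, KRT18 and MSLN passed the filter. WT1, at 0.70 to 1.26 FPKM, missed it, MUC16 was at 0 in all libraries and EPCAM was between 0.0871 and 0.466 FPKM. Of the 8 fibroblast and stroma markers, FAP (5.75 FPKM with miR-200a, 5.67 with vector) and ACTA2 (4.20 and 4.20 FPKM) passed, POSTN was at 0 in all libraries, and DCN, LUM, THY1, PDGFRA and PDGFRB stayed at or below 0.108 FPKM. The summed fibroblast list was 9.71 to 10.4 FPKM in the miR-200a libraries and 9.47 to 10.4 FPKM in the vector libraries. Leukocyte markers summed to at most 0.0565 FPKM in any library, and of the 4 endothelial markers CDH5 alone passed the filter while PECAM1, VWF and KDR stayed at or below 0.428 FPKM. The endothelial list summed to 40.2 to 51.8 FPKM in the miR-200a libraries and to 35.6 to 42.9 FPKM in the vector libraries, and the ovarian list to 400.2 to 502 FPKM against 349.9 to 388 FPKM. Within the endothelial sum, CDH5 alone stood at 39.5 to 51.15 FPKM with miR-200a and at 35.2 to 42.2 FPKM with vector. The part of these lists in the collagen values was not tested. All libraries are bulk RNA of the HEY line, in which fewer cells holding a message and less RNA per cell cannot be told apart.

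The design asks whether collagen RNA differs between HEY cells overexpressing miR-200a and HEY cells with the empty vector. In the main test, limma on log2(FPKM + 1) with Benjamini-Hochberg adjustment over all 12231 tested genes and a threshold of 0.05, 0 of the 14 tested collagens changed. Across all tested genes the same rule called 0.401%, made up of 0.286% higher and 0.114% lower with miR-200a. At an unadjusted p under 0.05, 6 of the 14 collagens were higher and none was lower, against 13.3% of all tested genes in either direction and 6.92% higher. With voom, limma's test for counts, on the recovered reads of genes with at least 10 reads in at least 3 libraries, 23 collagens could be tested and COL8A1 alone rose. voom called 1.31% of its 15172 genes, made up of 0.975% higher and 0.336% lower.

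COL8A1 encodes a chain of type VIII collagen, a short network-forming collagen known from the subendothelium and from the basement membrane of the cornea. The gene (ENSG00000144810) lies on chromosome 3 from base 99638475 to 99799226 on the plus strand of GRCh38 and overlaps no other gene of the table. It held 95, 79 and 91 reads in miR-200a 1, 2 and 3 and 29, 23 and 27 in vector 1, 2 and 3. These reads correspond to 0.554, 0.526 and 0.518 FPKM against 0.146, 0.137 and 0.177 FPKM. All 3 miR-200a libraries, including miR-200a 2, were above every vector library. The mean was 0.532 ± 0.0191 FPKM (SD, n = 3) with miR-200a and 0.153 ± 0.0212 FPKM (SD, n = 3) with vector, a 3.47-fold difference. In voom the log2 difference in reads was 1.79 with a standard error of 0.21 and an adjusted p of 0.00178. Leaving out any 1 library gave a voom adjusted p between 0.00267 and 0.0230. COL8A1 was below the FPKM filter, so the main test gave no value for it. With the filter dropped, its limma difference on the log2(FPKM + 1) scale, which compresses low values, was 0.41 with an adjusted p of 0.190. Counting error alone puts the summed reads between 234 and 299 with miR-200a and between 62.6 and 98.5 with vector (95% exact Poisson intervals of 265 and 79 reads). Its partner chain in type VIII collagen, COL8A2, held 1 to 9 reads per library and could not be tested. COL10A1, the other hexagonal network collagen, known from growth plate cartilage, held 0 to 11 reads.

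**Figure D1:**
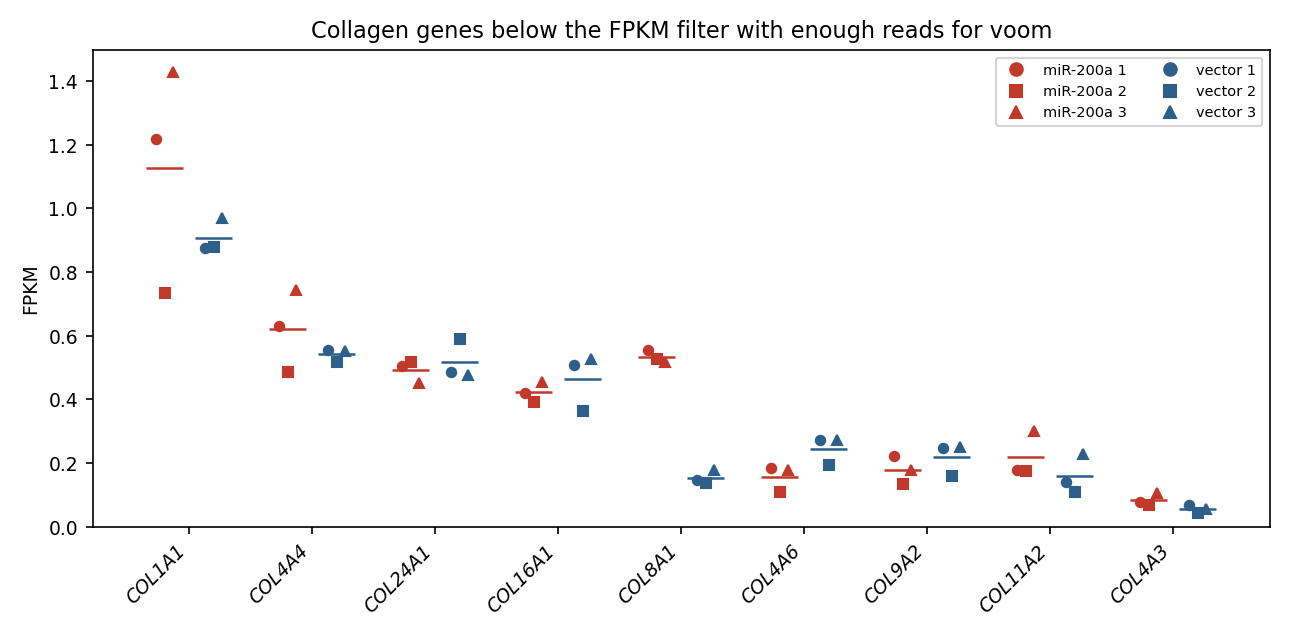
FPKM of the 9 collagen genes below the filter that had enough reads for voom, with 1 point per library (red miR-200a, blue vector, symbols for replicate numbers) and a line at each group mean. COL8A1 lies between 0.518 and 0.554 FPKM with miR-200a and between 0.137 and 0.177 FPKM with vector, while most other genes in the plot overlap between the groups.

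COL4A1 and COL4A2 encode the classical chains of basement membrane type IV collagen and ranked just below COL6A2 in FPKM with the deposited gene lengths. COL4A2 (chromosome 13, 110305812 to 110513209, plus strand) stood at 38.2, 25.4 and 38.5 FPKM in miR-200a 1, 2 and 3 and at 23.9, 20.9 and 26.5 FPKM in vector 1, 2 and 3. miR-200a 2 lay inside the vector range, and the other miR-200a libraries lay above it. COL4A2 had a log2(FPKM + 1) difference of 0.48 with a standard error of 0.17 and a limma adjusted p of 0.326. COL4A1 (chromosome 13, 110148963 to 110307233, minus strand) stood at 26.4, 20.01 and 26.6 FPKM with miR-200a and at 18.2, 15.4 and 17.5 FPKM with vector. Its groups did not overlap, with a difference of 0.48, a standard error of 0.12 and a limma adjusted p of 0.225. COL4A1 had the smallest adjusted p of the 14 tested collagens.

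COL4A1 and COL4A2 are transcribed in opposite directions from a shared promoter. Between their start sites lie 126 bases, shown in RefSeq sequence (GRCh38.p14, plus strand) because both genes start from them. Capitals mark the CCAAT box, CCAAT, and the GC box, GGGCGG, found by a search of both strands that had no overlap between the motifs. The TATA box, TATAAA, was also searched and was not found in these bases.
COL4A1-COL4A2, chr13:110307158-110307283: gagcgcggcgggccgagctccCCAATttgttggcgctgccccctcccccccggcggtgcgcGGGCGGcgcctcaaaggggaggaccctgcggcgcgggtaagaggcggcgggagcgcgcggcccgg

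Of 27305 genes with a RefSeq promoter of 300 bases, 48.3% held the letters GGGCGG and 39.7% CCAAT in at least 1 promoter, on either strand. Among the 32 collagens with a promoter there, 21 and 12 did so. The COL4A2 to COL4A1 level ratio was 1.27 to 1.52 over the 6 libraries, and 1.69 to 2.02 when lengths of the principal transcripts replaced the deposited gene lengths. The other type IV genes are also paired head to head, COL4A4 with COL4A3 on chromosome 2 with 418 bases between their starts and COL4A6 with COL4A5 on the X chromosome with 379. These chains form the type IV networks of the kidney filter and other specialised membranes. COL4A5 was at 4.48, 3.73 and 4.19 FPKM with miR-200a and at 4.42, 4.13 and 4.64 FPKM with vector, with overlapping groups. Its limma difference was -0.08 with an adjusted p of 0.690. COL4A6, which holds 2 of the 4 miR-200a-3p seed matches above, had 31, 16 and 31 reads with miR-200a and 53, 32 and 41 reads with vector. In FPKM these were 0.183, 0.108 and 0.179 against 0.271, 0.193 and 0.273, so every miR-200a library was below every vector library. The voom log2 difference was -0.64 with a standard error of 0.29 and an adjusted p of 0.321, so COL4A6 did not pass the test. COL4A3, with another of the matches, had 13, 10 and 18 reads with miR-200a and 13, 7 and 8 reads with vector, which per length and depth left 0.0686 FPKM as the lowest miR-200a value and 0.0677 FPKM as the highest vector value. The COL4A3 difference pointed the other way, at 0.59 on the log2 scale with a voom adjusted p of 0.464. COL15A1, which holds the remaining match, had 0 reads in all miR-200a libraries and 1, 2 and 0 in the vector libraries. COL4A4 was at 0.485 to 0.744 FPKM with miR-200a and at 0.516 to 0.556 FPKM with vector.

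Type VI collagen assembles from COL6A1, COL6A2 and one further chain, usually COL6A3. With the deposited gene lengths COL6A2 had the highest FPKM of the collagens, at 74.6, 43.1 and 75.3 with miR-200a and 47.1, 40.3 and 52.9 with vector. miR-200a 1 and 3 were above all vector libraries, and miR-200a 2 was within them. The difference was 0.42 with a standard error of 0.22 and a limma adjusted p of 0.445. COL6A1 was at 25.4, 15.9 and 24.4 FPKM with miR-200a and at 14.8, 13.3 and 15.7 FPKM with vector. Its groups did not overlap, and miR-200a 2 cleared the highest vector library only narrowly. The COL6A1 difference was 0.53 with a standard error of 0.17 and a limma adjusted p of 0.309. COL6A3 was much lower per length, at 2.18, 1.61 and 2.16 FPKM against 1.88, 1.56 and 1.54 FPKM, and its groups overlapped. Its level was 0.0858 to 0.128 times that of COL6A1, and 0.124 to 0.185 times with principal transcript lengths. COL6A5 and COL6A6, alternatives to COL6A3, held at most 5 reads in a library.

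Among fibrillar collagens, COL5A2 was the most abundant, followed by COL27A1 and COL5A1. COL5A1 and COL5A2 are chains of type V collagen, which nucleates fibrils. COL5A2 was at 11.6, 9.76 and 11.5 FPKM with miR-200a and 11.7, 10.2 and 12.4 FPKM with vector, with overlapping groups and a limma adjusted p of 0.789. COL5A1 was at 4.91, 3.65 and 5.77 FPKM against 3.34, 3.0 and 3.87 FPKM, where miR-200a 2 lay within the vector range. The COL5A1 difference was 0.38 with a standard error of 0.15 and a limma adjusted p of 0.355. Of the 6 ratios between chains that were computed, 3 did not overlap between the groups, and COL5A2 to COL5A1 was among them, with COL5A2 at 2.36, 2.68 and 1.99 times COL5A1 with miR-200a and at 3.51, 3.41 and 3.21 times with vector. The others were COL4A5 to COL4A6, at 23.4 to 34.6 with miR-200a and 16.3 to 21.4 with vector, and COL4A4 to COL4A3, at 7.04 to 8.08 and 8.22 to 12.0. The exact permutation test on such a split of 3 against 3 cannot give a two-sided p below 0.1. No share over other pairs of genes was computed for the ratios. The COL4A4 to COL4A3 ratio rests on 7 to 18 COL4A3 reads per library. The COL5A1 and COL5A2 messages had GC contents of 60.25% and 47.95%, and the part of GC content in the ratios was not tested. COL27A1, a short fibrillar collagen known from cartilage, was at 6.04, 4.18 and 5.81 FPKM against 4.65, 3.89 and 4.85 FPKM, with overlapping groups and a limma adjusted p of 0.512. Type I collagen, the main collagen of connective tissue, was low. COL1A1 was at 1.22, 0.733 and 1.43 FPKM with miR-200a and 0.875, 0.877 and 0.969 FPKM with vector, and so reached 1 FPKM in 2 libraries and just missed the filter. COL1A2 held 0 or 1 read in each library.

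Of the remaining classes, COL12A1, which binds along fibrils, was at 16.1, 17.0 and 16.7 FPKM with miR-200a and at 19.5, 17.4 and 14.9 FPKM with vector. The miR-200a libraries lay inside the vector range, and the limma adjusted p was 0.845. COL17A1, the transmembrane collagen of hemidesmosomes, was at 4.35, 3.19 and 4.22 FPKM against 2.87, 2.68 and 3.07 FPKM. Its groups did not overlap, and the difference was 0.34 with a standard error of 0.11 and a limma adjusted p of 0.313. COL18A1, whose C-terminal fragment is endostatin, was at 4.22, 2.50 and 3.82 FPKM against 1.69, 1.39 and 2.60 FPKM. Here miR-200a 2 lay below vector 3, and the other miR-200a libraries lay above all vector libraries. COL18A1 had the largest mean fold of the 14 tested collagens, 1.86, with a log2(FPKM + 1) difference of 0.64, a standard error of 0.20 and a limma adjusted p of 0.285. The gene overlaps SLC19A1 on the opposite strand, and no source used here says whether counting used strand, so their shared reads cannot be told apart. The ranges of COL4A1 and COL4A2 overlap on opposite strands in the same way. COL13A1, a transmembrane collagen of cell junctions, was at 6.62, 4.38 and 5.98 FPKM against 4.52, 5.24 and 5.52 FPKM, with overlapping groups and a limma adjusted p of 0.710. COL7A1, the anchoring fibril of skin, ran from 1.37 to 2.33 FPKM with miR-200a and from 1.53 to 2.30 FPKM with vector, with a limma adjusted p of 0.9003. In all, 3 collagens tested by limma were higher in every miR-200a library than in any vector library and none was lower, against 8.29% higher and 10.7% lower, or 19.0% in either direction, of all tested genes. Of the 23 collagens tested by voom, 5 were higher without overlap and 1 lower, against 9.54% and 9.96% of all genes tested by voom. Among the 5, COL4A3 was apart only by 0.0686 against 0.0677 FPKM. It reached 10 reads in every miR-200a library but held 7 and 8 reads in vector 2 and 3, so its count as higher carries no weight.

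**Figure D2:**
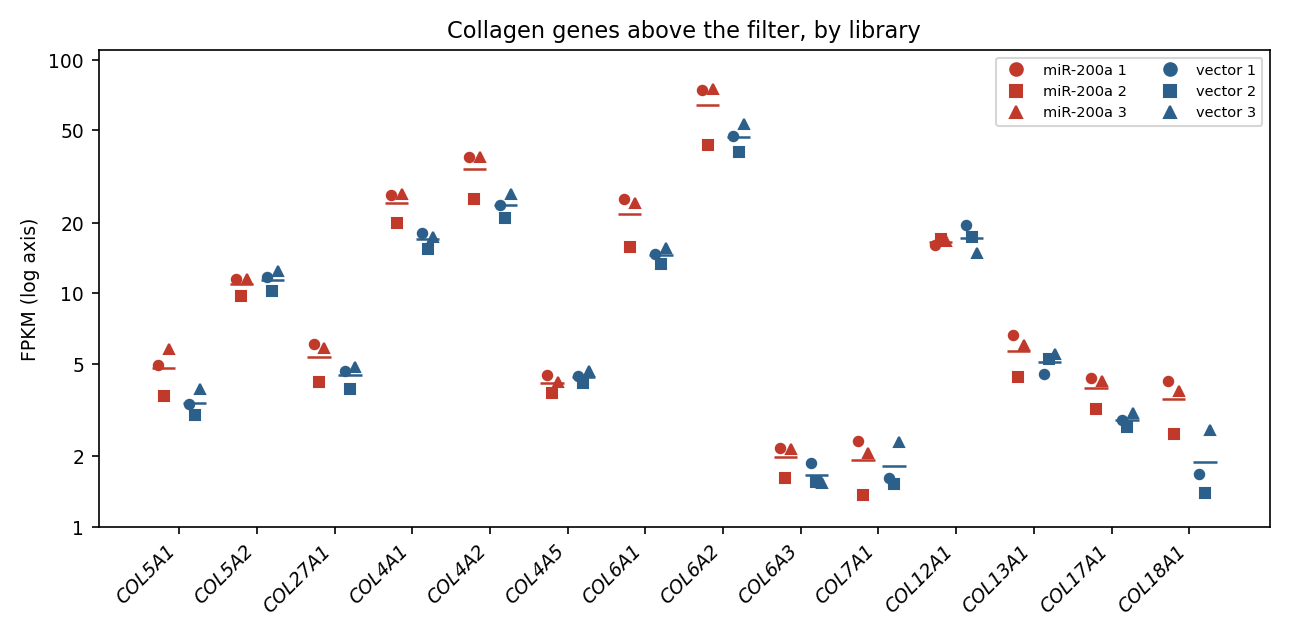
FPKM on a log axis of the 14 collagen genes above the filter, ordered by class, with 1 point per library (red miR-200a, blue vector, symbols for replicate numbers) and a line at each group mean. The red squares, miR-200a 2, lie near the blue points in most genes, as for COL6A2 at 43.1 FPKM, while miR-200a 1 and 3 lie together at 74.6 and 75.3 FPKM.

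Of the 14 tested collagens, 11 had a difference above 0 and 3 (COL4A5, COL5A2 and COL12A1) below 0, while 48.1% of all tested genes lay above 0. The median difference was 0.27 on the log2 scale over the collagens and -0.01 over all tested genes. Measured against the vector mean, this lean was not carried by all 3 miR-200a libraries. Relative to the vector mean of each gene, the median over the 14 collagens was 0.40 in miR-200a 1 and 0.38 in miR-200a 3 but -0.02 in miR-200a 2. The vector libraries were at 0.01, -0.13 and 0.10. Replicate 2 thus had the lowest median in each group. Each miR-200a median was above that of the vector library with the same number. Above the vector mean were 13 of the 14 genes in miR-200a 1, 12 in miR-200a 3 and 6 in miR-200a 2. The summed collagen level was 231.7, 159.1 and 231.6 FPKM in the miR-200a libraries and 163.9, 144.3 and 172.0 FPKM in the vector libraries, so that miR-200a 2 lay within the vector range. Without miR-200a 2, limma called COL4A1, COL4A2 and COL6A1 higher, with adjusted p-values of 0.0437, 0.0483 and 0.0354, against 1.84% of all tested genes called, 1.31% of all higher and 0.531% lower. voom without that library called 11 of the 23 collagens higher, against 12.9% of all genes it tested, 8.67% higher and 4.18% lower.

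**Figure D3:**
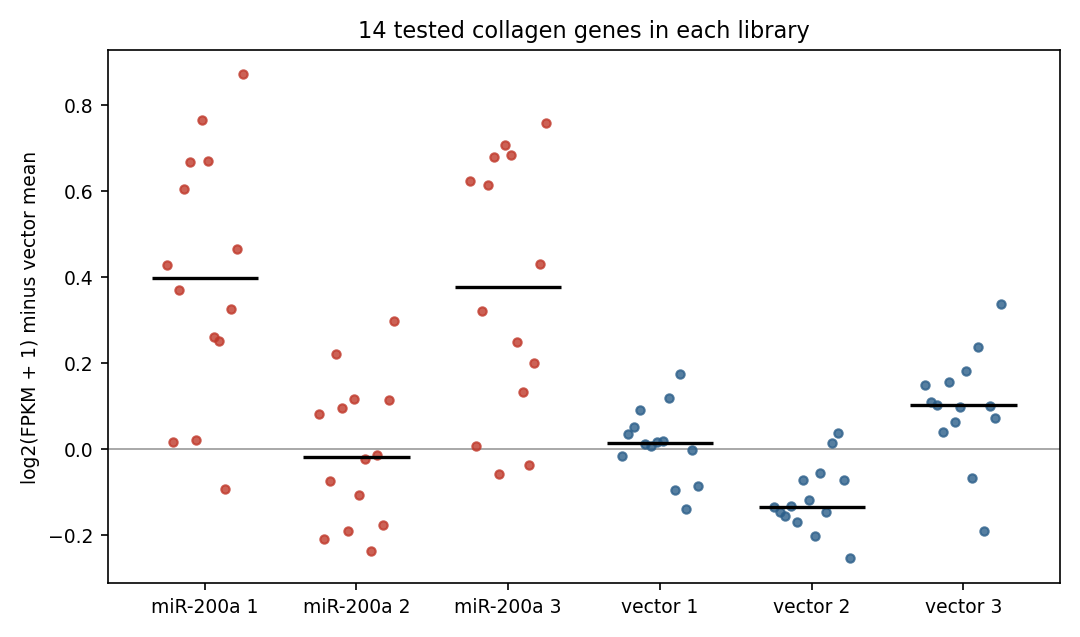
Level of each of the 14 tested collagen genes in each library, as log2(FPKM + 1) minus the mean of the vector libraries for that gene, with 1 point per gene and a black line at the median of the library. The medians of miR-200a 1 and 3 are 0.40 and 0.38, while miR-200a 2, at -0.02, lies between the vector libraries, which run from -0.13 to 0.10.

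GC content moved with these values. The messages of the 14 tested collagens had a median GC content of 59.6% (46.3% to 66.8%), against 47.9% for all tested genes. Over all tested genes, the median log2 difference went from -0.10 in the quintile of genes with the lowest GC content to 0.16 in the highest quintile, where 86.8% of genes lay above 0. In that highest quintile, which starts at a GC content of 57.7%, were 8 of the 14 collagens, and all of them lay above 0. The next quintile, with 66.5% of genes above 0, held COL4A1, COL17A1 and COL6A3, all above 0. The middle quintile, with 40.8% of genes above 0, held COL12A1, COL5A2 and COL4A5, which are the collagens with a difference below 0. The rank correlation of the difference with GC content was 0.69 over the 14 collagens and 0.53 over 12227 tested genes, given as a description of genes that share their libraries. In the highest GC quintile, the median of all genes relative to the vector mean was 0.26 in miR-200a 1, -0.04 in miR-200a 2 and 0.27 in miR-200a 3, so that miR-200a 2 stood apart from miR-200a 1 and 3 as it did for the collagens. Vector 1, 2 and 3 were at 0.02, -0.08 and 0.06, so that replicate 2 was lowest in each group.

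After each library was corrected for its trend with GC content and gene length, the collagen median was 0.15 on the log2 scale, with 9 genes above 0 and 5 below. The rank correlation of the corrected difference with GC content was still 0.40 over the 14 collagens. In that fit COL4A1 rose, with a difference of 0.38 and a limma adjusted p of 0.0437, and no other collagen changed, while 1.76% of all tested genes were called, 1.16% higher and 0.597% lower. The difference of COL4A2 became 0.30 (limma adjusted p = 0.149) and that of COL6A2 0.20 (limma adjusted p = 0.450). For COL8A1, whose message has a GC content of 46.8%, voom with the same correction gave a log2 difference of 1.80 and an adjusted p of 0.000749. COL4A1 was the other collagen called in that fit, with an adjusted p of 0.0260, and the fit called 2.66% of all genes, 1.64% higher and 1.02% lower.

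**Figure D4:**
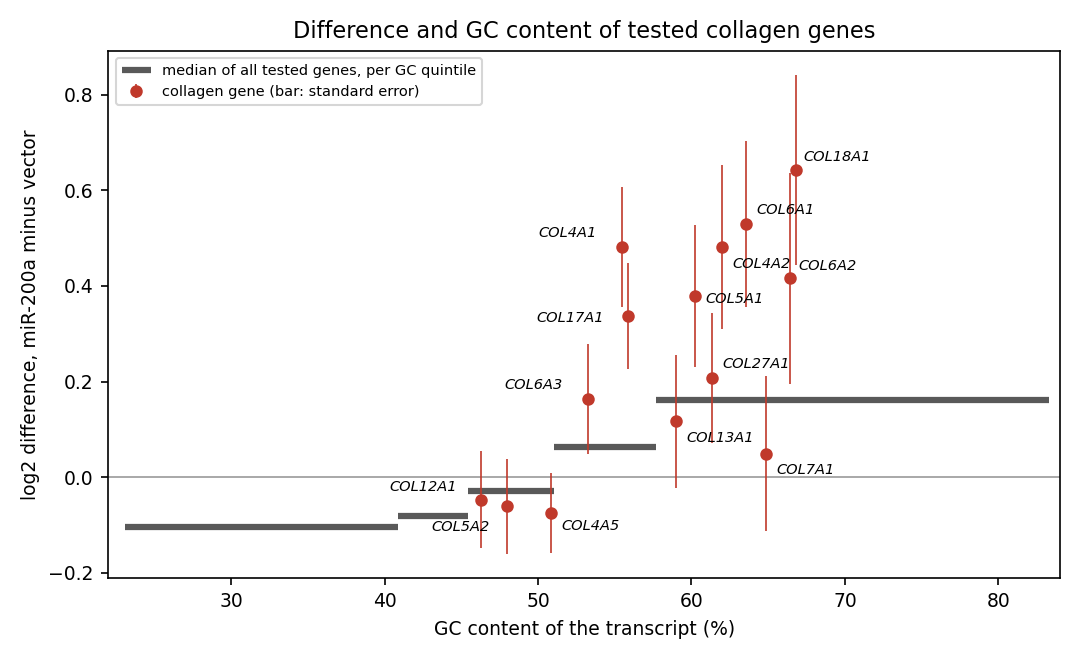
Log2 difference (miR-200a minus vector, log2(FPKM + 1) scale) of the 14 tested collagen genes against the GC content of their transcripts in percent, with bars of 1 standard error and grey lines at the median of all tested genes in each GC quintile. The grey lines go from -0.10 to 0.16, and the collagens above 0 lie in the 2 quintiles of highest GC content.

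Genes around the collagens were listed within 500000 bases on each side. On chromosome 21, where COL18A1, COL6A1 and COL6A2 lie in 1 block (45405137 to 46132849), 15 of 17 tested neighbours had a difference above 0, with a median of 0.14 that became 0.02 after the GC and length correction. None of these neighbours was called. All 8 tested neighbours of COL4A1 and COL4A2 lay above 0, with a median of 0.08 that was 0.07 after the correction. Around COL17A1, 5 of 8 lay above 0, with a median of 0.13 that was 0.10 after it. Around COL8A1, 0 of 3 tested neighbours lay above 0, and their median of -0.06 turned to 0.01 after the correction. Around COL5A1, 1 of 2 lay above 0, and their median of 0.12 turned to -0.02.

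Collagen chains are hydroxylated and glycosylated in the endoplasmic reticulum, folded with chaperones such as SERPINH1, carried out in large vesicles and trimmed outside the cell. Of 33 listed genes of this pathway, 25 were tested and none changed in limma, against 0.401% of all tested genes. At an unadjusted p under 0.05, 3 were higher and 3 lower, against 13.3% of all tested genes in either direction. Of the 25, 13 lay above 0 and 12 below, with a median of 0.00 on the log2 scale. The 4 with the smallest p-values had limma adjusted p-values between 0.207 and 0.318. Of these, P3H2, which hydroxylates proline in basement membrane collagen, was at 7.0, 5.50 and 6.98 FPKM with miR-200a against 4.30, 4.56 and 5.17 FPKM with vector. PCOLCE2, an enhancer of procollagen trimming, was at 3.66, 3.33 and 2.94 FPKM against 4.19, 4.74 and 5.08 FPKM. MIA3, which loads procollagen into transport vesicles, was at 7.36, 7.66 and 7.85 FPKM against 9.53, 9.02 and 8.96 FPKM. PLOD2, the telopeptide lysyl hydroxylase, was at 84.4, 103 and 83.1 FPKM against 104, 118 and 112 FPKM. In each of these 4 genes the groups did not overlap, and they were the only such genes of the 25 (1 higher and 3 lower), against 19.0% of all tested genes. TLL2, a tolloid-like protease below the FPKM filter, rose in voom from 0.252 ± 0.0542 FPKM (SD, n = 3) with vector to 0.597 ± 0.108 FPKM (SD, n = 3) with miR-200a, with a voom adjusted p of 0.0353. That call was lost when miR-200a 3 or any 1 of the vector libraries was left out, with adjusted p-values between 0.0837 and 0.147.

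Of 17 listed collagen receptors and collagen-cutting proteases, 9 were tested and none changed in limma, against 0.401% of all tested genes. Of these, 7 lay above 0 and 2 below, with a median of 0.17. MMP2, a gelatinase that cuts denatured collagen and type IV collagen, was at 7.62, 5.79 and 6.96 FPKM with miR-200a and 3.89, 2.76 and 2.71 FPKM with vector. Its groups were well apart, with a difference of 0.92, a limma adjusted p of 0.0568 and a voom adjusted p of 0.00537. ITGA2, a subunit of the collagen-binding integrins, was at 38.7, 42.2 and 36.8 FPKM against 33.0, 32.3 and 32.1 FPKM, with a limma adjusted p of 0.260. After the GC and length correction the ITGA2 difference was 0.35 with a limma adjusted p of 0.0179, past the threshold. The collagen-activated receptor kinases DDR1 (3.63 against 2.56 FPKM) and DDR2 (14.8 against 13.4 FPKM) had limma adjusted p-values of 0.304 and 0.413. All 4 of these genes, of the 9 tested, were higher in every miR-200a library than in any vector library, against 8.29% of all tested genes, and none of the 9 was lower without overlap. Of the 4 cartilage genes listed as markers, MATN3, a matrix protein that binds collagen fibrils, rose from 1.97 ± 0.148 FPKM (SD, n = 3) to 3.53 ± 0.0130 FPKM (SD, n = 3), with a limma adjusted p of 0.0310. Leaving out any 1 library other than miR-200a 2 took that adjusted p to between 0.0939 and 0.179. SOX9, a transcription factor of cartilage and of several epithelia, was at 12.0 against 7.75 FPKM with a limma adjusted p of 0.0618 and a voom adjusted p of 0.0163. COMP was at 0 in all libraries, and ACAN held a value above 0 in miR-200a 3 alone. The cartilage list summed to 14.1 to 16.3 FPKM with miR-200a and to 9.49 to 9.99 FPKM with vector, and its part in the collagen values was not tested.

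**Figure D5:**
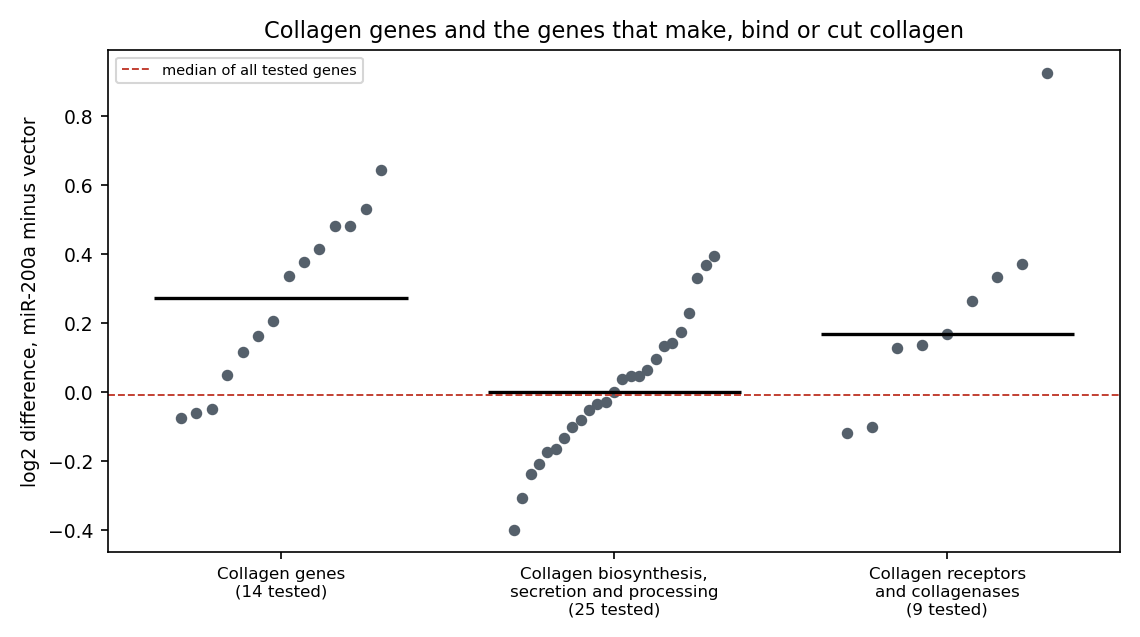
Log2 difference (miR-200a minus vector, log2(FPKM + 1) scale) of each tested gene in 3 lists, with 1 point per gene in rising order, a black line at the list's median and a dashed line at the median of all tested genes. The medians are 0.27 for the 14 collagens, 0.00 for the 25 genes that make and process collagen and 0.17 for the 9 receptors and proteases, among which MMP2 is highest at 0.92.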

How the data were processed

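The authors deposited FPKM values for 58735 genes in 6 libraries of polyA RNA, made with a SMARTer mRNA-Seq kit per the labels' protocols. No source used here gives the aligner, the counting tool or the strand setting. Mouse builds (GRCm38, mm10) are named in the submitters' processing notes, but all 58735 gene IDs, starts and ends equal human GENCODE 29, so coordinates are GRCh38. No value column was left unmapped.

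Multiplying each deposited FPKM by gene length and by a total for its library returned whole reads in 100% of nonzero values, within 0.001 of a read. Depth was 15849592 to 21003858 reads. The totals were not plain depth. Each equalled the geometric mean depth of all libraries multiplied by the library's median-of-ratios factor, with a ratio of 1 in the lowest and highest library. The test was limma 3.58.1 (R 4.3.3, trended eBayes) for genes with at least 1 FPKM in at least 3 libraries, on log2(FPKM + 1), a scale that understates the change of low genes. It was two-sided, with Benjamini-Hochberg adjustment over 12231 genes. limma's voom on recovered reads needed at least 10 reads in at least 3 libraries. GC content was taken from the principal coding transcript, or else from the longest, and its trend and that of length were removed per library with natural splines of 4 degrees of freedom. The scripts were tested on simulated data. Sequence counts and tables used Python 3.11.15 with pandas 2.3.3 and scipy 1.17.1.

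Values per library are given for the 10 collagens with the highest mean FPKM, for those past the threshold in limma or voom and for tested ones whose groups do not overlap. They are also given for tested collagens with a miR-200a seed match, of which there were 0. Of each other list, members past the threshold and the 4 smallest p-values are named. COL1A1, COL1A2, COL18A1, COL6A3, COL7A1, COL4A4, COL8A2, COL10A1, the genes with seed matches below the filter and the untested chains were added after their values were seen. Members and lists were chosen with earlier results of these data known. The labels do not say whether replicates are separate cultures, and p-values therefore cover the spread between these libraries alone, which may be technical. Other pseudocounts, filters, scalings, a replicate block and leaving out libraries were tried. Voom with libraries left out, voom with the GC correction and principal transcript lengths were chosen after seeing the data.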

Additional observations from a re-analysis of the deposited data

How the results depend on the processing

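With pseudocounts of 0.1 or 0.5 FPKM, a filter of 1 FPKM in all 6 libraries, no filter, upper-quartile or TPM scaling, the replicate block with or without the GC and length correction, or miR-200a 1 and 3 averaged, 0 collagens were called, as in the main test. voom on recovered reads called 1, the GC and length correction 1, and both together 2. Leaving out 1 library gave 0 to 3 called collagens in limma and 1 to 11 in voom, the highest counts both without miR-200a 2. The median collagen difference was 0.148 to 0.398 in the other limma fits and 0.129 to 0.416 in voom, but without a filter, over 38 collagens, it was 0.00716. Over all genes, 49 were called in the main test, 5 without a filter, 9 with miR-200a 1 and 3 averaged, 199 with voom, 215 with the GC and length correction and 403 with voom and that correction. Leaving out 1 library gave 8 to 225 genes in limma. In voom it gave 1924 without miR-200a 2 and 61, 70, 77, 82 and 91 in the other fits, each over 1.5 times away from 199. Of the genes that make and process collagen, 25 were tested in the main test and 30 by voom. voom called 1, and so did voom with the correction. limma without miR-200a 2 called 1, and voom with a library left out called 0 to 9. Of the receptors and proteases, 9 were tested in the main test and 13 by voom. Among them, 1 was called with the stricter filter, 1 with voom, 2 (MMP2 and ITGA2) with the GC and length correction and 1 with the replicate block. The block with the correction called 1, voom with the correction 2, limma with a library left out 0 to 1 and voom with a library left out 1 to 6. The gene was MMP2 wherever the count was 1 among the limma fits with the stricter filter or the block. The counts of 9 and 6 were both in voom without miR-200a 2, which called 12.9% of all genes. Over all genes, voom called 1.31%, the GC and length correction 1.76%, both together 2.66% and limma without miR-200a 2 1.84%.

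Replicate numbers are shared between the groups. Deviations from the group means correlated at 0.14, 0.37 and -0.01 between same-numbered libraries. The value of 0.37, for replicate 2, was the highest between any miR-200a and any vector library. miR-200a 1 also correlated best with vector 1, but so did miR-200a 3 (0.20). These correlations cannot decide whether the numbers pair the libraries, because the deviations within a group sum to 0. The main test took no pairing, and the replicate block was an alternative. The replicate block called 69 genes in all and 0 collagens. Its limma adjusted p-values were 0.0748 for COL4A1, 0.1045 for COL4A2 and 0.119 for COL6A1, the genes called without miR-200a 2. In the main test they were 0.225, 0.326 and 0.309. MATN3 missed the threshold in the block (adjusted p = 0.0529), and SOX9 passed it (adjusted p = 0.0452).

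Near-zero differences changed sign in 5 collagens, and in each the cause was not tested. COL12A1 became 0.0409 in limma and 0.0426 in voom without vector 1, with the lowest values over left-out libraries at -0.142 in limma and -0.151 in voom. COL5A2 became 0.0126 and 0.0147 without miR-200a 2, with the lowest at -0.134 in limma and -0.143 in voom. COL24A1 became 0.0217 in voom without vector 2. COL13A1 became -0.0182 with the GC and length correction, with or without the block, and -0.0509 with voom and that correction. COL7A1 became -0.157 with the correction, with or without the block, -0.203 with voom and the correction, -0.0515 and -0.0670 in limma and voom without miR-200a 1, -0.0228 and -0.0191 without vector 2, and -0.0216 with miR-200a 1 and 3 averaged, and was highest without miR-200a 2, at 0.192 in limma. Depth limits the low members: 21 of the 44 collagens missed the filters of both limma and voom and could be tested by neither. A separate floor of 3 reads was set over the 6 libraries together.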

Other observations

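Noncoding neighbours of the collagens were listed at low levels. COL4A2-AS1, an antisense gene within the range of COL4A2, held 1, 3 and 4 reads in miR-200a 1, 2 and 3 and 9, 4 and 5 reads in vector 1, 2 and 3. In FPKM its groups did not overlap, at 0.102, 0.348 and 0.396 with miR-200a and 0.791, 0.414 and 0.572 with vector, and it had too few reads for either test. COL4A2-AS2 held 13, 2 and 4 reads against 14, 9 and 7 reads. COL5A1-AS1 and COL18A1-AS1 held at most 4 reads in a library, and the collagen pseudogenes COL6A4P1 and COL11A2P1 held none. Because no source used here gives the strand setting of the counting, reads of an antisense gene and of the collagen it overlaps cannot be told apart.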
